A study of Mus musculus with 16 samples.

Results

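A set of 2176 genomic regions carried a narrow H3K4me3 peak in activated muscle stem cells and no overlapping narrow peak, by 1 bp or more, in quiescent ones. They were chosen from the authors' peak lists by that overlap alone and made up 13.7% of the 15869 narrow H3K4me3 peaks of activated cells. The other 13693 activated peaks overlapped a quiescent peak and are called shared. The study mapped H3K4me3 and H3K27me3 in skeletal muscle stem cells (mouse strain C57BL/6) in a quiescent state (QSC) and an activated state (ASC), to examine both histone marks in each. All groups share strain, tissue and cell type, with 2 immunoprecipitated libraries per mark and state, each with an input library, 16 in all. Chromatin of sonicated nuclei was immunoprecipitated and the bound DNA was tagmented with transposase (ChIPmentation). The labels used here do not give the age, sex or number of animals, nor how the cells were isolated or activated. Each mark and state has 1 narrow and 1 broad peak list, named for both of its replicates, so no spread between replicates and no test of a difference can be had, and the values below are descriptions. Read depth is unknown from these lists, and fewer marked cells or less mark per cell cannot be told apart.

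H3K4me3 is a histone mark laid down around the starts of genes that are active or ready to be transcribed, and it sits most firmly on CpG-rich promoters. H3K27me3 is the mark of Polycomb repression, and regions with both marks are called bivalent and are common at developmental regulators that a cell holds silent. Satellite cells, the stem cells of muscle, rest outside the cell cycle until injury or culture activates them, when they grow, divide and make myoblasts. Peaks were assigned to genes by RefSeq starts on GRCm38.p6, which shares coordinates with mm10, the build of the lists.

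The promoters of 9 genes with an activated-only peak were chosen as examples of genes named below and do not stand for the whole set, each as the RefSeq window (GRCm38.p6) from 250 bases before to 50 bases after the start, 5′ to 3′ on the gene's strand. The first 4 belong to genes of division or chromatin assembly, with capitals marking CCAAT or its reverse complement ATTGG (the NF-Y box) and TTTGAA or TTCGAA (letters of the cell cycle homology region, CHR, through which many mitotic genes are held off in resting cells). Ccnb2 encodes cyclin B2 (chr9:70421505-70421804, minus strand), Bub1 a spindle checkpoint kinase (chr2:127831810-127832109, minus strand), Cdc20 an activator of the anaphase-promoting complex (chr4:118437294-118437593, minus strand) and Asf1b a histone chaperone (chr8:83955444-83955743, plus strand).
Ccnb2: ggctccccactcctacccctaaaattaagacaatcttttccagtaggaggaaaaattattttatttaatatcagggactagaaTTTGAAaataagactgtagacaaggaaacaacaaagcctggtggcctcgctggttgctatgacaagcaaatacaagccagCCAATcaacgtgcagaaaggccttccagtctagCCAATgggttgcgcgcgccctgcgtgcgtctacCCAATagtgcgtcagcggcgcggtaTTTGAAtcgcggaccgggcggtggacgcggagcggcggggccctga
Bub1: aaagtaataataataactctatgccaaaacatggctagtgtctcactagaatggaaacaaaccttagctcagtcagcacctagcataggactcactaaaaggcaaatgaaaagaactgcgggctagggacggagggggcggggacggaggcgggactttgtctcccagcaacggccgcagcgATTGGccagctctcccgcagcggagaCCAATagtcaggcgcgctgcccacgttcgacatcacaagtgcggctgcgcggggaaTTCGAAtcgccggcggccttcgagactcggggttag
Cdc20: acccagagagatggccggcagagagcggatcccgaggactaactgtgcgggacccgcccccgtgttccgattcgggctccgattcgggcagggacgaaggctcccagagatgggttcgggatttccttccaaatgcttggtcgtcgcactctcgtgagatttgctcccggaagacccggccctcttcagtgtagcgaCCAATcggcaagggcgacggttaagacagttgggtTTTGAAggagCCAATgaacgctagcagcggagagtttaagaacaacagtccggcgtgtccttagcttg
Asf1b: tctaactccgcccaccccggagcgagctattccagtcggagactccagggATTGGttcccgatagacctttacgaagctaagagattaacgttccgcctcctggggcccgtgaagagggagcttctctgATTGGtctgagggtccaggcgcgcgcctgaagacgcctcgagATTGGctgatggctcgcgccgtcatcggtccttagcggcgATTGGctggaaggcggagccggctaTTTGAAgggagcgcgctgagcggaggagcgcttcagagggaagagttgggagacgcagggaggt

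In Ccnb2, CCAAT began at bases -87, -54 and -21 and TTTGAA at bases -167 and 5, counted from the start with no base 0. In Cdc20, TTTGAA began at base -18 between CCAAT at -53 and -8. In Asf1b, ATTGG began at 4 places (bases -200, -121, -79 and -39) ahead of TTTGAA at -14, and in Bub1 TTCGAA lay downstream of the start, at base 15. The next window is that of Pclaf, a PCNA-binding protein of replication (chr9:65890073-65890372, plus strand), with capitals for the NF-Y box and for GCGGGAAA, the reverse complement of the E2F letters TTTCCCGC, at base -5.
Pclaf: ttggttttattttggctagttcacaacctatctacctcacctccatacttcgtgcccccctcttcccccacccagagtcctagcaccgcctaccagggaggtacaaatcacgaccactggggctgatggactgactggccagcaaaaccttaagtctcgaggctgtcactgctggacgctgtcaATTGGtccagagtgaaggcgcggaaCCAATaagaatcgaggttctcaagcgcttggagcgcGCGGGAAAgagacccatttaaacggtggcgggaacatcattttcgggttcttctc

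Of the last 4 windows, 3 show CpG content and 1 a match to the letters TATAAA. In Runx1, a transcription factor with distal and proximal promoters (chr16:92826025-92826324, minus strand, the distal start), and in Kcnn4, a calcium-activated potassium channel (chr7:24370013-24370312, plus strand), capitals mark every CG, 2 and 6 of them. Gbx2, a homeodomain regulator of the embryonic brain (chr1:89931127-89931426, minus strand), held 27. In Tnc, the matrix glycoprotein tenascin-C (chr4:64046887-64047186, minus strand), capitals mark TATAAA, the letters searched for the TATA box, at base -205. This is a match of letters far from the start. The window also holds the letters tatataa much nearer the start, left in lower case because those letters were not searched. Whether either stretch acts as a TATA box was not tested.
Runx1: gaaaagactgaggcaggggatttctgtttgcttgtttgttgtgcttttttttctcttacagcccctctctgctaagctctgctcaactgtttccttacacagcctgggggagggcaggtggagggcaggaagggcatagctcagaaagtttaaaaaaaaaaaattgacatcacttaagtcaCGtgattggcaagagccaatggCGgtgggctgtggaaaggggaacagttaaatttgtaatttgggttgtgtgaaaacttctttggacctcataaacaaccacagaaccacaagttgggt
Kcnn4: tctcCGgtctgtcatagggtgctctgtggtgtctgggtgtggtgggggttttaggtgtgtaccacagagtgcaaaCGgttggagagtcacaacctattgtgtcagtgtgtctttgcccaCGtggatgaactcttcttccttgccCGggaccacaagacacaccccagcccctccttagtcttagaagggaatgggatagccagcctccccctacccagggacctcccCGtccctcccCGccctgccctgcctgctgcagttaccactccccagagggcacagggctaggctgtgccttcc
Gbx2: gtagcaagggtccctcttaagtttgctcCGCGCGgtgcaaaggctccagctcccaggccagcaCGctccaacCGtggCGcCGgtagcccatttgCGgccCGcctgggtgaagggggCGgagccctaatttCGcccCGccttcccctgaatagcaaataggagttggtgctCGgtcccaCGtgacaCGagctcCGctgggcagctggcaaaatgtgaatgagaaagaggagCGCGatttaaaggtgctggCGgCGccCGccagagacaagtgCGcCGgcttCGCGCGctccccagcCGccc
Tnc: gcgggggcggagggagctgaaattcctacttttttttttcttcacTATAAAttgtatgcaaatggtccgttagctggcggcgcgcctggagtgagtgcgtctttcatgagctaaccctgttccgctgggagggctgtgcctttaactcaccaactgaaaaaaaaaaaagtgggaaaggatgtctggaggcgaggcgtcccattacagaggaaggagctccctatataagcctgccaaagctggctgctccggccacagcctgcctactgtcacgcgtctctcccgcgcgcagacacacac

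Activated-only peaks also lay at or near microRNA genes, whose mature strands (RefSeq, GRCm38.p6) follow with the seed, bases 2 to 8, in capitals. They are shown because the regions at their host records are described below; these microRNAs were chosen after their values were seen. The pair of let-7 strands shares 1 seed, and the other seeds differ.
mmu-miR-31-5p: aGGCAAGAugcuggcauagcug
mmu-miR-322-5p: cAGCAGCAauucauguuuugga
mmu-miR-503-5p: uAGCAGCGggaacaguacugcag
mmu-let-7b-5p: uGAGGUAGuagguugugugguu
mmu-let-7c-5p: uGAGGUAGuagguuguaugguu

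The labels of the samples were set against marker genes first. All 10 satellite cell identity genes had a narrow H3K4me3 peak in both states, and none of them carried an activated-only peak. Of 7 immune markers none had a peak in either state, and of 7 endothelial markers 2 had one in both states and Cldn5, a tight junction claudin, in activated cells only with a fold of 4.46. The 6 pericyte and smooth muscle markers had 2 in both states and 2 in quiescent cells only, and the 5 Schwann and glial markers 2 in both. Of 6 fibro-adipogenic markers, the receptor gene Pdgfra (5.24), Cd248 (5.42) and the collagen gene Col1a1 (4.15) carried an activated-only peak and the other 3 had none in either state. For 5 of the 6 no promoter entry was at hand and both ends of the gene record were used. Some of these peaks may therefore lie at the 3′ end. Over all coding genes, 3.07% had an activated-only peak and no quiescent narrow peak at a start. The part of other cell types in the activated-only peaks was not tested.

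The activated-only peaks were weaker and narrower than the shared ones. Their fold enrichment over background, the authors' own value for each peak, had a median of 4.88 (quartiles 4.15 and 6.32, range 1.59 to 36.8), against a median of 19.0 for shared peaks. Their median width was 815.5 bp (range 239 to 6098) against 2237 bp, and together they covered 2078 kb. A fold of 10 or more was reached by 130 of them (5.97%) and by 77.3% of shared peaks, while 1149 (52.8%) stayed under 5. The set was therefore mostly a collection of small peaks, with a tail that reached the folds of shared peaks. Strength and the lack of a quiescent call both enter a peak list, so this contrast describes the set and tests nothing.

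**Figure D1:**
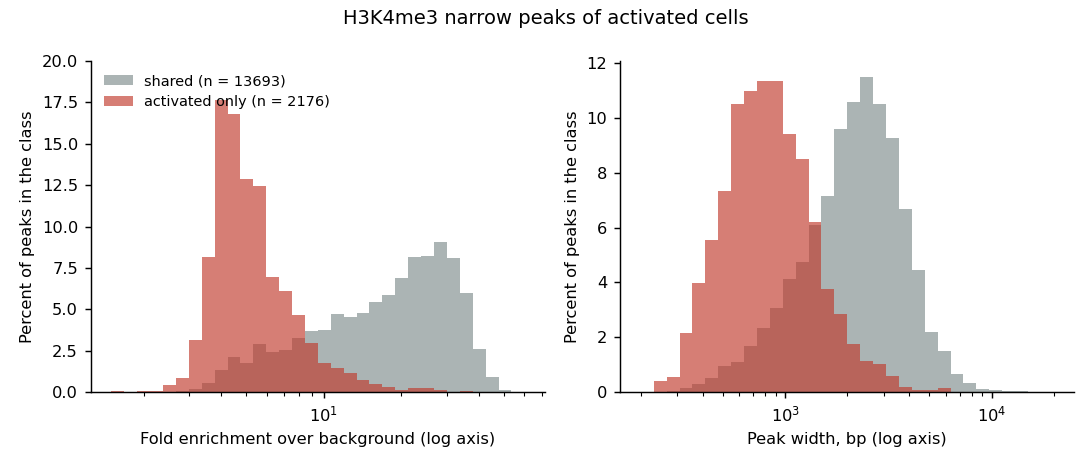
Histograms of fold enrichment over background (left) and peak width in bp (right), both on log axes, as percent of the peaks in each class, for 2176 activated-only and 13693 shared H3K4me3 narrow peaks of activated cells. The activated-only peaks centre at a median fold of 4.88 and a median width of 815.5 bp, and the shared peaks at 19.0 and 2237 bp.

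Around the overlap limit, 38 activated-only peaks lay less than 100 bp from a quiescent peak, the closest at 9 bp (median fold 4.97), and 16 shared peaks overlapped one by less than 100 bp, the least by 2 bp (median fold 4.79). Within 1 kb of a quiescent peak lay 409 activated-only peaks (18.8%), whereas 1397 (64.2%) were more than 10 kb away. The highest fold of the set belonged to one of the close ones, at Top2a, the topoisomerase of mitotic chromosomes, with 36.8 at 250 bp from a quiescent narrow peak. Leaving out the Y chromosome (0 of 4 activated peaks), activated-only peaks made up from 9.55% of the activated peaks of chromosome 11 to 18.2% of those of chromosome 13, and 17.6% of those of the X chromosome.

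In quiescent cells most of the regions were touched by faint broad peaks. The quiescent broad list touched 1919 of them (88.2%), compared with 98.3% of all activated peaks, and with 18.9% of the coding starts that had no narrow peak within 500 bp. The quiescent broad peaks there were faint, with a median fold of 2.096 and a median -log10 q of 0.555. A quiescent broad peak with a -log10 q of at least 2 touched 423 (19.4%) of them, against 90.4% of shared peaks. That broad list is permissive, since 94.0% of its 184538 peaks have a -log10 q below 2.

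The 257 regions with no quiescent broad peak either included a few strong ones. A peak of 5794 bp in the non-coding gene record Gm49890 had a fold of 29.0 (chr4:88933510-88939303). Rin1, a Ras effector (28.5), and Kcnn4 (21.9) followed among coding genes. Ahnak2, a large scaffold protein, had 16.1, Ptprn, a phosphatase-like protein of secretory granules, 15.9, and Chrnd, the delta subunit of the muscle acetylcholine receptor, 14.6. Inside genes, untouched peaks lay 8.16 kb from the nearest coding start in Cubn (16.1), 24.05 kb from it in Phactr4 (13.7) and 3.22 kb from it in Wnt7b, a Wnt ligand (12.6). The nearest quiescent narrow peak was far off at Cubn (60.2 kb) and close by at Wnt7b (2.46 kb).

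Position was read from the distance to coding gene starts. Within 1 kb of a coding start lay 983 (45.2%), against 85.4% of shared peaks, and their median fold was 5.24. The share was 52.4% within 2.5 kb and 53.0% for activated-only peaks of fold 5 or more. Inside genes away from any start lay 669 (30.7%, median fold 4.52), between genes 326 (14.98%, 4.70) and at starts of other genes 198 (9.10%, 5.06). The last group held 120 peaks at lncRNA starts, 36 at tRNA genes, 17 at pseudogenes and 12 at miRNA genes. Counted by gene, 967 of 21887 coding genes (4.42%) had an activated-only peak at a start. In 671 of them (3.07%) no start had a quiescent narrow peak, and in the other 296 one did. Genes without a RefSeq promoter entry were taken by both ends of their record, where a peak may lie at the 3′ end; these were 161 of the 671, among them Shcbp1, Stac2, Chrnd, Nrn1 and Dlgap5.

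The strongest peaks at coding starts lay at genes of varied function, some with and some without H3K27me3. Division and chromatin genes with high folds included Pclaf (28.2), Shcbp1, an adaptor of dividing cells (26.01), Chaf1a, a subunit of chromatin assembly factor (24.9), Asf1b (21.5), Iqgap3, a scaffold for small GTPases (21.9), the nuclease gene Ankle1 (20.1) and Neil3, a DNA glycosylase (19.1). All 7 had H3K27me3 in neither state. Shmt1, an enzyme of folate metabolism that feeds thymidylate synthesis (17.5), also lacked it, as did Kcnn4. Parvb, the focal adhesion protein beta-parvin (24.9), Stac2, a partner of voltage-gated calcium channels (17.5), Dclk1, a microtubule-binding kinase (17.5), and Ltbp2, a matrix protein of the latent TGF-beta binding family (16.8), had H3K27me3 broad peaks in both states. The quiescent ones covered each of these regions whole. The activated ones covered 164 of 2696 bp at Parvb, an edge only, and 796 of 1707 bp at Dclk1. At Stac2 they covered 2686 of 3278 bp and at Ltbp2 2423 of 2896 bp. The regions at Chaf1a (chr17:56040328-56042035) and Bub1 (chr2:127830643-127832404) were under 2 kb wide, and that at Parvb (chr15:84231057-84233752) was wider.

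**Figure D2:**
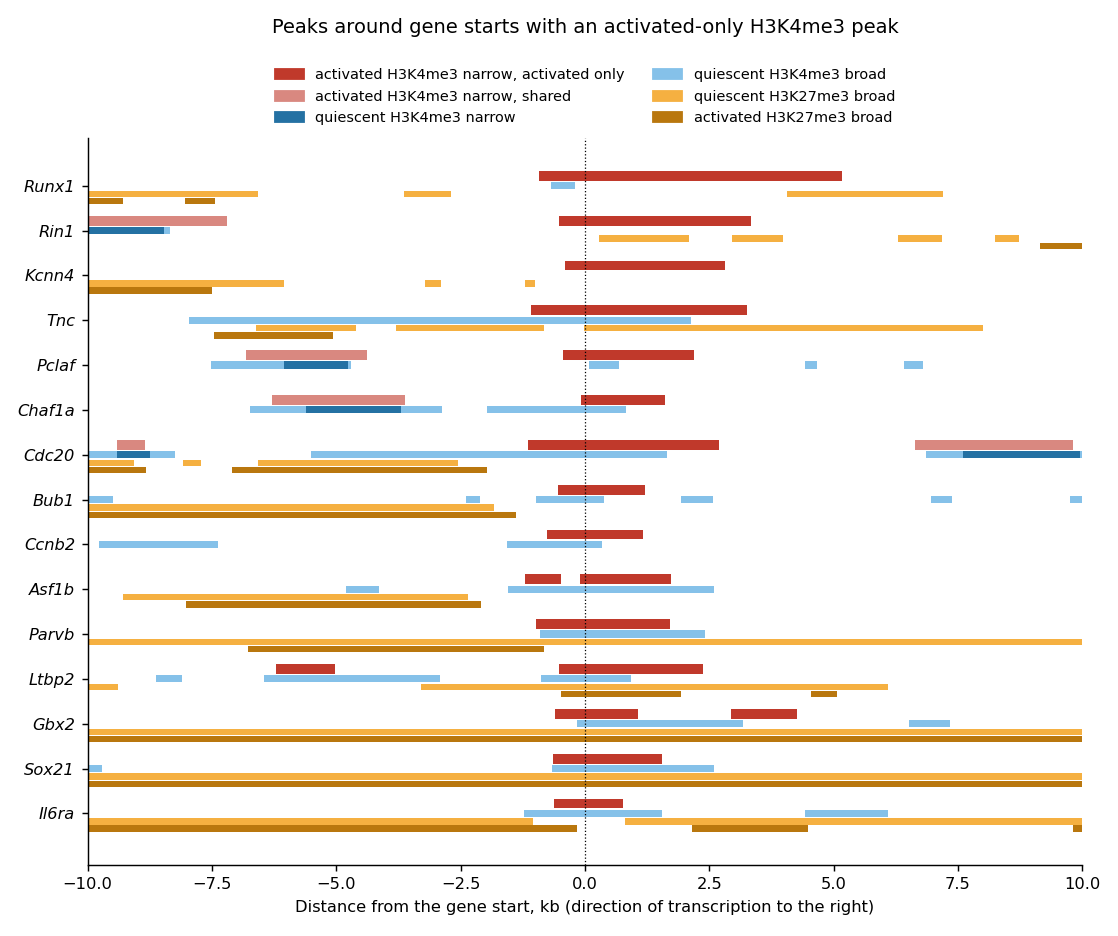
Peaks from 10 kb before to 10 kb after the start of 15 genes with an activated-only H3K4me3 peak, distance in kb with transcription to the right; bars show, from top to bottom of each row, activated H3K4me3 narrow peaks (dark red, activated only; light red, shared), quiescent H3K4me3 peaks (dark blue, narrow; light blue, broad), and H3K27me3 broad peaks of quiescent (light orange) and activated (brown) cells. Rin1 and Kcnn4 have no quiescent H3K4me3 peak of either list under the activated one, and Gbx2 and Sox21 lie within H3K27me3 in both states.

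The widest regions lay at genes of quite different function. Runx1 had the widest peak, 6098 bp, at its distal start. Cavin4, a muscle protein of caveolae, had 4714 bp (fold 10.8), Tnc 4342 bp (12.6), and the peak shared by the divergent genes Tk1 and Afmid 5228 bp (14.99). Nrn1, which encodes neuritin, had 5469 bp (11.0). A region of 5815 bp over Rn18s-rs5, a copy of the 18S ribosomal RNA gene, had the lowest fold of the whole set, 1.59. Reads from ribosomal DNA cannot be placed on 1 copy, and that value is uncertain. The other low folds were 2.00 at 91.3 kb from Axin2, 2.12 in Chrna1, 2.195 in Cdk8 and 2.44 in Steap4.

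In some genes the activated-only peak marked 1 start while another start of the gene was marked in quiescent cells. This held for 55 genes, for 45 of them by starts of the promoter table and for 38 of those with more than 5 kb between the starts. At Runx1 the starts lay 128.7 kb apart, with a fold of 34.5 for the activated-only peak and of 25.9 for the quiescent peak at the other start, each within its own list. At Mllt10, a chromatin-binding protein, the starts lay 9.35 kb apart and the activated-only peak had a fold of 15.5, at 160 bp from a quiescent narrow peak. Other genes were Specc1, a coiled-coil protein (12.6, 120.3 kb apart), Frmd4b (10.1, 129.8 kb), Fgd4, an exchange factor for Cdc42 (9.93, 39.8 kb), Pkig, an inhibitor of protein kinase A (8.67, 35.6 kb), and Septin9 (8.49, 66.6 kb). Tcf12, the E protein HEB that pairs with myogenic factors, had a peak of fold 6.50 at a start 215.1 kb from the one with a quiescent peak of fold 17.4. Pak1, a kinase downstream of Rac and Cdc42, had 6.50 at a start 54.4 kb away, and Gnas, an imprinted locus with many starts, 4.52.

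Regions inside and between genes were weaker, with some high values. Inside genes the strongest with a coding host were in Kif2c, a kinesin that depolymerises microtubules (25.1, 2.37 kb from the start), and Abl2, a tyrosine kinase of the cytoskeleton (22.8). Cflar, an inhibitor of caspase-8 (14.6), Cep85, a centrosomal protein (13.9), Iqsec1, an exchange factor for Arf6 (13.3), and Mbnl2, a splicing factor (12.8), were also among the 10 highest inside genes, none with H3K27me3. Hmgb3 (14.3) lay 124 bp from a quiescent narrow peak. Between genes, a peak of fold 13.2 stood 75.3 kb from Hmga2, a chromatin protein of growing mesenchyme, with H3K27me3 in both states, and others lay 3.22 kb from Ifna13 (13.5) and 13.4 kb from Prelid2 (13.0). Counting peaks at gene starts as well, 1230 of 21887 coding genes held the summit of an activated-only peak within their record, and 118 held 2 or more. Nfia, a nuclear factor I gene, held 8, with no fold above 5.24, Septin9 and Fry 5 each, and Gnas, Mdfic, Zbtb20 and Rgmb 4 each.

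H3K27me3 was common under the activated-only peaks. Broad H3K27me3 peaks touched 841 of them in quiescent cells (38.6%, exact 95% binomial interval 36.6 to 40.7) and 893 in activated cells (41.04%). Over all activated H3K4me3 peaks the shares were 17.4% and 23.5%, and over shared peaks 13.97% and 20.66%. In both states together it touched 759 (34.9%), in quiescent cells only 82 (3.77%), in activated cells only 134 (6.16%) and in neither 1201 (55.2%). By these broad calls most regions were the same in both states, 1201 of them with no call in either. Like the quiescent H3K4me3 broad list, the H3K27me3 broad lists are permissive, with 98.6% of peaks in quiescent and 95.6% in activated cells at a -log10 q below 2. Broad peaks of a -log10 q of at least 2 touched 15.2% and 24.3% of activated-only peaks, and 3.43% and 8.42% of shared ones. With the narrow H3K27me3 lists the shares were 21.3% and 26.6%, against 4.52% and 9.72% of shared peaks. The narrow lists touched 425 activated-only peaks in both states, 38 in quiescent cells only, 153 in activated cells only and 1560 in neither. The intervals treat regions as independent and cover counting only; H3K27me3 was not part of the choice of regions, and with 1 list per state the difference from shared peaks has no replicate test.

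The difference from shared peaks was widest at gene starts. At coding starts H3K27me3 touched 52.3% of activated-only peaks in quiescent cells and 56.3% in activated cells, against 13.3% and 19.3% of shared peaks. At other gene starts the shares were 43.4% and 40.9% against 17.1% and 28.0%. Inside genes they were 24.5% and 27.2% against 19.8% and 30.4%, and between genes 23.6% and 23.6% against 15.6% and 26.2%. Inside and between genes, the counting intervals of activated-only and shared peaks overlapped for H3K27me3 of either state. At both positions the quiescent share was the higher for activated-only peaks and the activated share the lower. Overlap of intervals, here and below, is not a test and does not show that shares are equal. Within bins of equal fold, the quiescent share for activated-only peaks was 31.6% below a fold of 4, 43.1% from 5 to below 6 and 30.8% at 12 or above, and that of shared peaks 16.9%, 26.5% and 9.02%. For H3K27me3 of activated cells the shares were nearer to each other. They were 35.87% against 28.31% below a fold of 4 and 40.25% against 35.23% from 4 to below 5. From 5 to below 6 they were 45.69% against 41.42%, and from 6 to below 8 45.43% against 44.80%. From 8 to below 12 they were 45.29% against 37.18%, and the counting intervals overlapped in every bin below 12. At 12 or above the activated shares were 26.92% and 13.11%, and the intervals did not overlap. Among activated-only coding starts the quiescent share was 28.6% at a fold of 12 or above, compared with 51.3% below a fold of 4. The activated share of the same bins was 23.2% and 57.2%. Of the 257 regions with no quiescent broad H3K4me3 peak, 56.03% had H3K27me3 in quiescent cells.

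**Figure D3:**
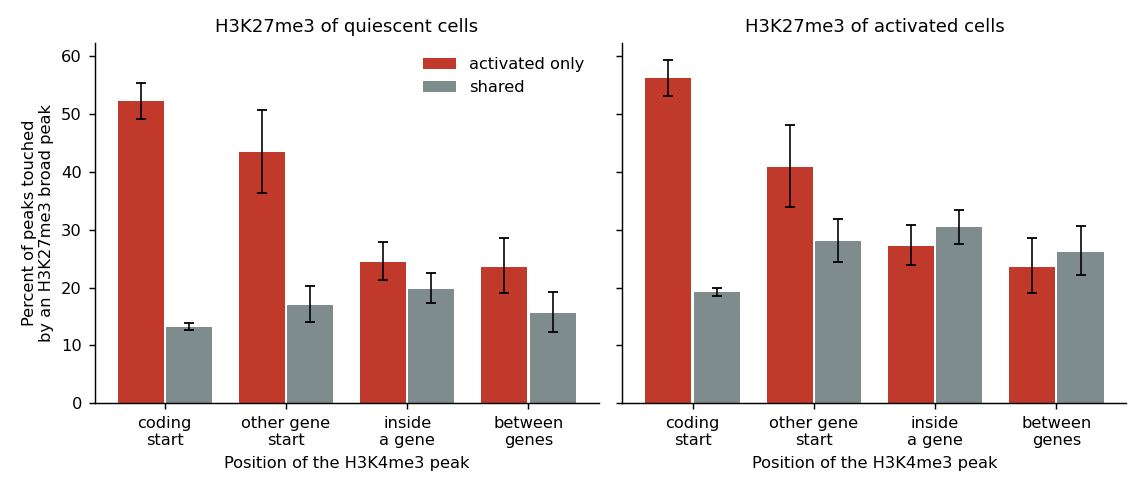
Percent of activated-only (red) and shared (grey) H3K4me3 narrow peaks of activated cells touched by an H3K27me3 broad peak of quiescent cells (left) and activated cells (right), by position; lines are exact 95% binomial intervals, which cover counting only. At coding starts 52.3% and 56.3% of activated-only peaks were touched, against 13.3% and 19.3% of shared peaks.

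Where H3K27me3 was called in quiescent cells only, the strongest regions were those at Runx1 (34.5), Rin1 (28.5) and Tnc (12.6). Vasn, a secreted TGF-beta trap (11.2), the water channel gene Aqp1 (11.0) and the interleukin-13 receptor gene Il13ra1 (9.93) belonged here too. At Runx1 the quiescent H3K27me3 peaks covered 1101 bp of the 6098 bp region with a fold of 1.85, and at Tnc 3541 bp of 4342 bp with a fold of 2.28; of the 3, Tnc alone was also touched in the quiescent narrow H3K27me3 list. Where it was called in activated cells only, the 10 of highest fold included Gatm, an enzyme of creatine synthesis (11.7), Il6ra, the interleukin-6 receptor (10.8), Efna2, an ephrin ligand (9.98), and Esr2, an oestrogen receptor gene (8.13). The H3K27me3 overlap at Gatm was 184 bp and at Il6ra 469 bp, so these are edges rather than covered promoters.

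Genes of named pathways were read from 20 lists. Of 647 listed genes, 66 (10.2%) had an activated-only peak at a start and no quiescent narrow peak at any, and 13 more had one while a quiescent narrow peak lay at the same or another start, where the share over all coding genes was 3.07%. The lists were picked for regulated genes with results of these data known, so the higher share describes the choice as much as the genes. Of the 66, 39 had H3K27me3 in both states, 3 in quiescent cells only, 5 in activated cells only and 19 in neither.

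**Figure D4:**
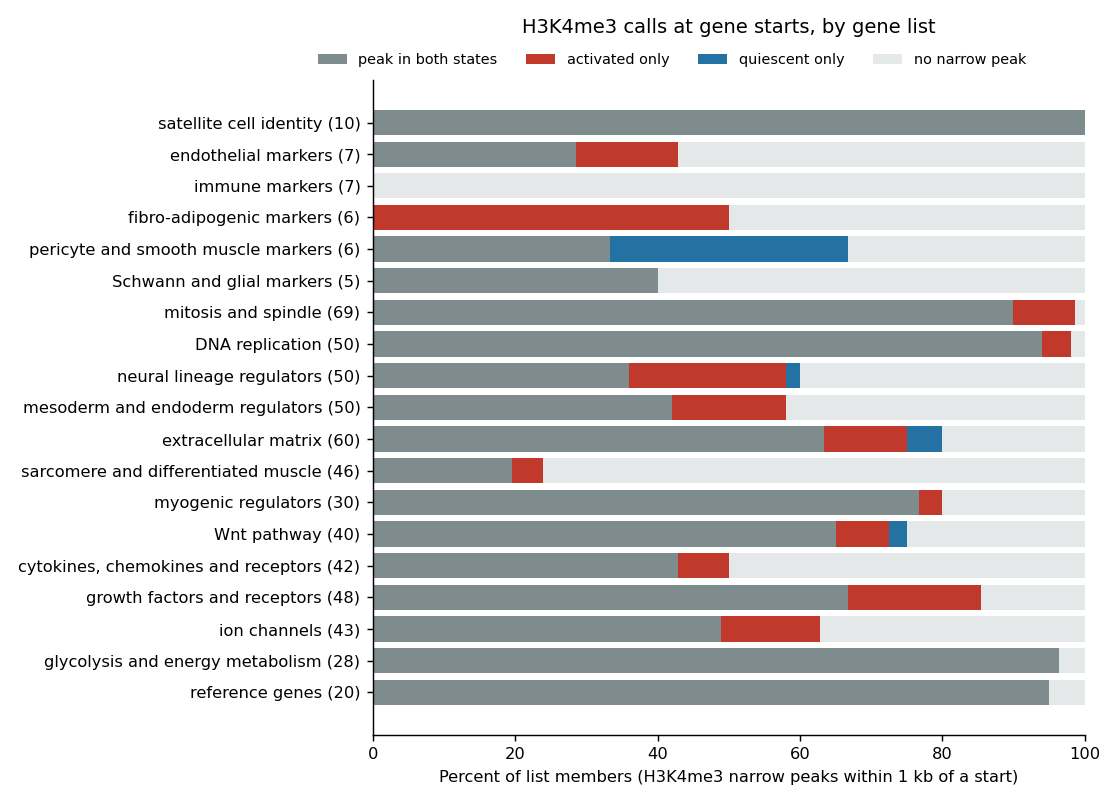
Percent of the members of the gene lists, 1 list left out, with a narrow H3K4me3 peak within 1 kb of a start in both states (dark grey), in activated cells only (red), in quiescent cells only (blue) or in neither (light grey); list sizes stand in brackets. Neural lineage regulators had 11 of 50 in activated cells only, and satellite cell identity, glycolysis and reference genes 0.

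Division genes carried few but strong activated-only peaks. The share of all coding genes with an activated-only peak and no quiescent narrow peak was 3.07%, near that of the replication list. Of 69 mitosis and spindle genes, 62 were marked in both states and 6 (8.70%) in activated cells only, and of 50 replication genes 47 and 2 (4%). Besides the genes shown above, these included Dlgap5, a spindle protein (17.5), Ska1, of the kinetochore (14.1), and Cdc25c. All 8 had a fold of 10 or more, and none had H3K27me3. All had a quiescent broad peak, but a faint one, with a -log10 q from 0.025 at Ccnb2 to 0.917 at Cdc25c. Kif23, a kinesin of cytokinesis (8.13, 241 bp away), the DNA ligase gene Lig1 (5.96, 286 bp) and E2f1 (4.88, 108 bp) had an activated-only peak beside a quiescent one. Over the lists themselves, H3K27me3 was called in quiescent cells at 4 of 69 mitosis and 5 of 50 replication genes, against 30.3% of all coding genes.

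Regulators of other lineages carried activated-only peaks of about the fold of the whole set, nearly all on top of H3K27me3. Of 50 neural lineage regulators, 18 were marked in both states and 11 (22%) in activated cells only, against 3.07% of all coding genes. The 11 had folds from 3.72 at Tlx3 to 9.21 at Gbx2 and a median of 4.88. Among them were Sox21, a repressor of the SoxB family (7.41), Lmx1a, a regulator of dopamine neurons (5.96), Lhx1 (4.88) and Barhl2 (3.97). H3K27me3 touched all 11 in both states, as it did all 50 members of the list, where the shares over all coding genes were 30.3% in quiescent and 35.5% in activated cells. Of 50 mesoderm and endoderm regulators, 21 were marked in both states and 8 (16%) in activated cells only. Again all 8 had H3K27me3 in both states, and their median fold was 5.32. Over the whole list it was called at 43 of 50 genes (86%) in quiescent and 45 (90%) in activated cells. Runx1, which has a quiescent peak at its other start, is not among the 8. Ebf1, a factor of B cells and fat (8.85), Prrx2, of limb mesenchyme (6.86), Foxa1, of endoderm (5.24), and Runx3 (4.70) were among these.

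Signalling and surface genes gave a mixed picture. Of 48 growth factor and receptor genes, 32 were marked in both states and 9 (18.75%) in activated cells only, against 3.07% of all coding genes. The epidermal growth factor family was represented by Egf (8.67), Areg, amphiregulin (8.31), and Ereg, epiregulin (6.50). Other members were Fgf5 (7.41), the stress-induced Gdf15 (5.60) and Bmp7 (4.70). The Gdf15 peak lay only 109 bp from a quiescent narrow peak. Of the 9, 6 had H3K27me3 in both states and 3, Egf and Gdf15 among them, in neither. Cytokine genes had 3 of 42 (7.14%) in activated cells only, namely Il6ra, Il11 (4.88) and the chemokine gene Cxcl5 (4.88). Of 40 Wnt pathway genes 3 (7.5%) were in activated cells only, with folds from 7.22 at the receptor gene Lgr5 to 9.75 at Fzd6. All 3 had H3K27me3 in both states. Over the whole Wnt list it was called at 28 of 40 genes (70%) in quiescent and 33 (82.5%) in activated cells.

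Over all coding genes the share marked in activated cells only was 3.07%. Of 43 ion channel genes 6 (13.95%) were so marked, and 4 of these lacked a quiescent broad peak at the gene's starts as well. They were Kcnn4, Scn8a, a sodium channel of neurons (9.39), Kcnc1 (5.24), Kcnh1, a potassium channel of fusing human myoblasts (4.37), Cacng1, a subunit of the muscle calcium channel (3.97), and Chrnd. Matrix genes had 7 of 60 (11.7%). Timp1, an inhibitor of metalloproteinases, had a fold of 11.2, Spp1, osteopontin, 7.59, and Fbln1, Col14a1 and Adam8 between 3.75 and 5.24. For muscle genes the shares stood beside 3.07% of all coding genes. Of 46 sarcomere genes (4.35%) there were Ttn, titin (7.22), and Klhl40, a stabiliser of thin filaments (5.60), and of 30 myogenic regulators (3.33%) Eya2, with a fold of 4.52. No gene of the glycolysis list (28) or the reference list (20) was marked in activated cells only.

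Regions at tRNA genes were a group chosen after its values were seen. Of 408 tRNA genes 61 (15%) had an activated-only peak within 1 kb, where the share of coding genes was 4.42%, and 52 of them had no quiescent narrow peak there. The 44 peaks concerned had a median fold of 7.04 (range 3.43 to 19.1) against 4.88 for the whole set, and 40 of them were more than 1 kb from a coding start. On chromosome 13, where tRNA and histone genes are clustered, lay 24 of the 44. The strongest were at n-TIaat3 (19.1, chr13:23394498-23397065, with no quiescent broad peak), n-TIaat9 (16.8) and n-TAagc19 (16.6), all with H3K27me3 in both states. H3K27me3 was in neither state at 16 of the 44. Near-identical tRNA copies can share reads, and the copies named are uncertain for that reason.

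The microRNA regions differed widely in strength. The peak of fold 29.0 in Gm49890 lay in the same non-coding record as the hairpin of miR-31 (chr4:88910557-88910662, minus strand) and 22.8 kb from it. In mouse satellite cells miR-31 is known to hold back translation of the myogenic factor Myf5. H3K27me3 broad peaks overlapped this region in both states, with folds of 3.10 in quiescent and 2.09 in activated cells, each within its own list. Narrow H3K27me3 peaks touched it in quiescent cells only, and the nearest quiescent H3K4me3 narrow peak was 65.1 kb off. A peak of fold 10.3 (1946 bp, chrX:53055711-53057656) covered the start of C430049B03Rik, the record that holds miR-322 and miR-503, at 1.36 kb and 1.66 kb from their hairpins. These microRNAs are known to promote cell cycle exit in mouse myoblasts, and H3K27me3 was called there in quiescent cells only, with a fold of 2.22. The let-7b and let-7c-2 hairpins lay within a peak of fold 3.97 and Mir137, a microRNA of neurons, within a peak of fold 4.15.

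The promoter windows under the set were intermediate in CpG content. The 629 windows with an activated-only peak and no other narrow H3K4me3 peak had a median of 5 CpG per 100 bases, against 7.33 for windows with a shared peak, 1 for those with no activated peak and 4.33 for all 21263 coding windows. The H3K27me3 state split them. Windows with H3K27me3 in both states (346) had 6.33, and those with it in neither state (222) had 3.67. The quartiles of the 629 were 2.67 and 8.33, so the printed windows of Runx1 (2 CG in 300 bases) and Gbx2 (27) lie below the lower and above the upper one.

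Of the motifs searched on both strands, most were held by the activated-only windows about as often as by all coding windows. NF-Y letters were in 37.0% of the 629 windows and 38.2% of all, the AP-1 letters TGACTCA or TGAGTCA in 4.77% and 4.66%, the myogenic E-box CAGCTG in 15.4% and 15.6%, the Myc E-box CACGTG in 9.54% and 7.84%, TATAAA in 11.3% and 12.6%, and the CRE letters TGACGTCA in 1.91% and 2.23%. CHR letters were in 12.7% of the 629 against 17.6% of all and 12.5% of shared-peak windows. The E2F letters TTTGGCGC, TTTCGCGC, TTTCCCGC or TTTGGCGG were in 3.02% of the 629, in 3.02% of all and in 4.55% of shared-peak windows. Within the 45 windows of fold 10 or more and no H3K27me3, a split chosen after the data were seen, CHR letters were in 16 (35.6%) and E2F letters in 6 (13.3%), where all coding windows had 17.6% and 3.02%. Windows of 1 gene overlap in part, matches to short letters arise often without a factor, and a match is a description of the sequence.

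**Figure D5:**
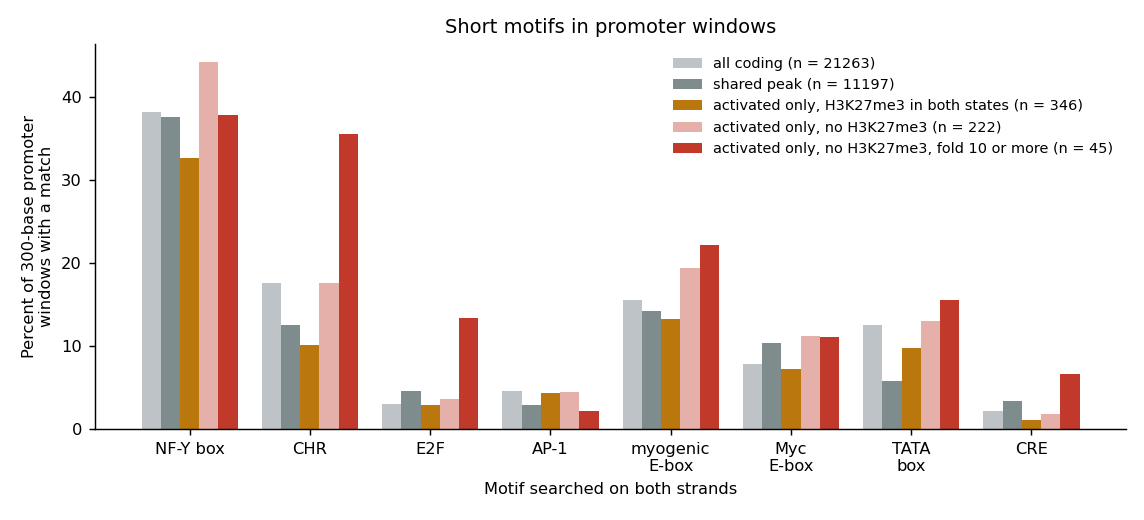
Percent of 300-base coding promoter windows that hold each motif, by class of H3K4me3 peak; n is the number of windows in a class, and classes of activated-only windows have no other narrow H3K4me3 peak. CHR letters are in 35.6% of the 45 windows of fold 10 or more without H3K27me3 and in 17.6% of all coding windows.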

How the data were processed

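Per the labels, libraries of 2 reads of 75 bp were sequenced on a NextSeq 500. The submitters' processing notes name build mm10, the peak caller MACS2 2.1.1 and the tools Bowtie2 2.3.2, Trimmomatic 0.36, bcl2fastq 2.19, bedtools 2.26.0, SAMtools 1.3 and Picard 2.9.2, with settings not given in the sources used here. The deposited lists give for each peak a fold enrichment (a linear ratio) and, computed by the authors, a -log10 q. Whole-list overlaps of 1 bp or more, gaps and distances to starts were computed with Python 3.11.15, numpy 2.4.6, pandas 2.3.3 and scipy 1.17.1, after the interval functions were tested on simulated data. Starts came from RefSeq promoter entries (17492 coding genes) or, for 4395 genes, from both ends of the record; chromosome 18 promoter sequence was not used here. Folds of separate lists are not compared.

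Members, the 20 gene lists and the motifs were chosen with earlier results of these data known. Genes were named by rule: the 20 highest folds at coding starts, the 15 highest without a quiescent broad peak, the 10 widest, the 10 highest inside and between genes and in each single-state or shared H3K27me3 class, all list members, the 10 genes with most peaks and the 5 lowest folds, examples being taken from these; a few of the genes so named are not reported here. Genes with more than 1 start, microRNA and tRNA regions and provisional symbols were added after their values were seen.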

Additional observations from a re-analysis of the deposited data

How the results depend on the processing

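Alternatives moved 23 of 34 recomputed values and kept 11 within 1.5 times (counts) or within the 95% interval of the value reported (shares and medians). The number of activated-only peaks, 2176, became 3953 when shared meant at least 50% coverage, 277 against the quiescent broad list, 415 at a -log10 q of at least 20, 1027 at a fold of at least 5 and 1198 with lists of equal length. Genes with such a peak and no quiescent one went from 671 to 395 at a fold of at least 5 and to 100 against the broad list. The share touched by the quiescent broad list, 88.2%, was 19.4% at a broad -log10 q of at least 2, 83.7% at 50% coverage and 90.2% at a fold of at least 5. The share at coding starts, 45.2%, was 40.4% within 500 bp, 52.4% within 2.5 kb, 54.3% with all annotated genes, 53.0% at a fold of at least 5 and, in an alternative chosen after seeing the data, 35.3% with promoter-table starts alone. H3K27me3 in quiescent and activated cells touched 21.3% and 26.6% by narrow lists, 33.9% and 37.1% at 50% coverage, and 15.2% and 24.3% at a -log10 q of at least 2. With lists of equal length the median fold was 5.96 and the median width 971 bp. By list, a fold of at least 5 left all 8 mitosis and replication genes and 5 of the 11 neural regulators; against the broad list, 0 of either remained. The lists carry no counts, so the effect of depth was not tested. No paired analysis was possible because each state and mark has 1 list for both replicates, and for the same reason no replicate could be left out.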
